A study of Homo sapiens with 9 samples.

Results

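Residual PC3 tumors titled P-DXd were compared with vehicle tumors across all genes of their count table, to ask which pathways and cell programs differed after treatment beyond proliferation. Members were chosen by name: the 3 libraries whose columns and titles carry P-DXd, from animals H1.2, H1.3 and H2.2, and the 3 that carry PBS, 6 of the 9 libraries of the series. PC3 is an established human prostate cancer line that is p53-null. Cells in Matrigel were injected under the skin of male NSG mice, which lack T, B and NK cells but still have macrophages, fibroblasts and vessels of their own, so each library holds 1 tumor of a single cell line grown in an immunodeficient host. P-DXd (patritumab deruxtecan, an antibody to HER3) and T-DXd (trastuzumab deruxtecan, an antibody to HER2) were given at 5 mg/kg once a week by retro-orbital injection. PBS mice received the vehicle alone. The titles and the treatment fields name opposite conjugates for the treated animals, so which antibody the 3 treated mice received is not settled by the record and they are called P-DXd-titled throughout. Mouse age, starting volume and number of cycles are given differently by the series record and by the methods of the study, so no value is stated for them.

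Both conjugates deliver the same payload, deruxtecan, a topoisomerase I inhibitor that a peptide linker ties to the antibody. After the receptor carries the conjugate into the cell, lysosomal proteases cut the linker and free the drug, which traps topoisomerase I on DNA during replication. Residual tumors are therefore tissue that outlived repeated exposure to a DNA-damaging drug, and their RNA reports on tumor cells and on any mouse cells whose reads align to human genes.

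Of 16098 protein-coding genes listed, 14945 passed the filter on low counts. At an adjusted p of at most 0.05 by edgeR's quasi-likelihood test and a fold change of at least 1.5, 1677 were higher (11.2%) and 2065 lower (13.8%) in P-DXd-titled tumors. These shares are the background against which each list below is read. Groups were apart, with every P-DXd-titled library above every PBS library, for 27.8% of genes, and below for 27.4%. The median log2 fold change over all tested genes was -0.0053. Library totals ran from 90761763 to 125538606 counts with PBS and from 54481702 to 83721486 in P-DXd-titled tumors, so each PBS library was deeper. No label says that the animals were housed or processed separately, and the p-values measure the spread between these tumors. The treated replicates 1, 2 and 3 are animals H1.2, H1.3 and H2.2. Levels are CPM, counts scaled to library size with TMM factors, given in replicate order 1 to 3, and fold changes are log2 of P-DXd-titled over PBS.

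The epithelial identity of the tumors was present in both groups, with EPCAM at 275, 389 and 432 CPM in PBS and 609, 519.6 and 551 CPM in P-DXd-titled libraries. A pair of libraries stood apart. PBS replicate 1 differed from PBS replicates 2 and 3 by 331 and 411 chi-square units per gene, while replicates 2 and 3 differed by 39.3. Treated replicate 2, from animal H1.3, differed from its partners by 137 and 116, against 43.0 between those partners. The 38 tested skeletal muscle genes summed to 8107 CPM in it, 0.811% of its counts, and to 360 and 738 CPM in treated replicates 1 and 3, with 202 to 317 CPM over the PBS libraries. Removing it lowered the counts to 1082 higher and 1382 lower over all genes, the background for each list's count without it. Fewest genes were called without treated replicate 3, 796 higher (5.21%) and 1061 lower (6.94%). Without PBS replicate 2 there were 1102 higher (7.26%). Whether counting used the strand of reads is not stated in the sources used here, so values of genes overlapping another listed gene are uncertain. Among genes named below these include CA9, COL18A1, CRB3, CRYAB, CTSD, CXCL16, DDIT3, ERBB2, FADS1, FOXA1, GBP2, IRF9, KRT8, NR1D1, PSMB10, SQSTM1, SREBF1 and TPI1. ABCA10, ATG16L2, DNAJB9, IDUA, PSMD2 and UCN2 also overlap another listed gene.

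Over the 33 program lists, 8 had at least 30% of their tested members called in the upward direction. These were lysosome, mucosal secretory, FOXO-responsive, MHC class I, epithelial, LXR, interferon-stimulated and integrated stress genes. In the downward direction 6 lists had at least 30% called, namely glycolysis, cholesterol synthesis, hypoxia, ribosome biogenesis, NF-kB and MAPK genes, and the NF-kB and MAPK lists also had 26% and 20.8% called higher. Oxidative phosphorylation, proteasome, unfolded protein response and chaperone genes had shares at or under the background in each direction.

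**Figure D1:**
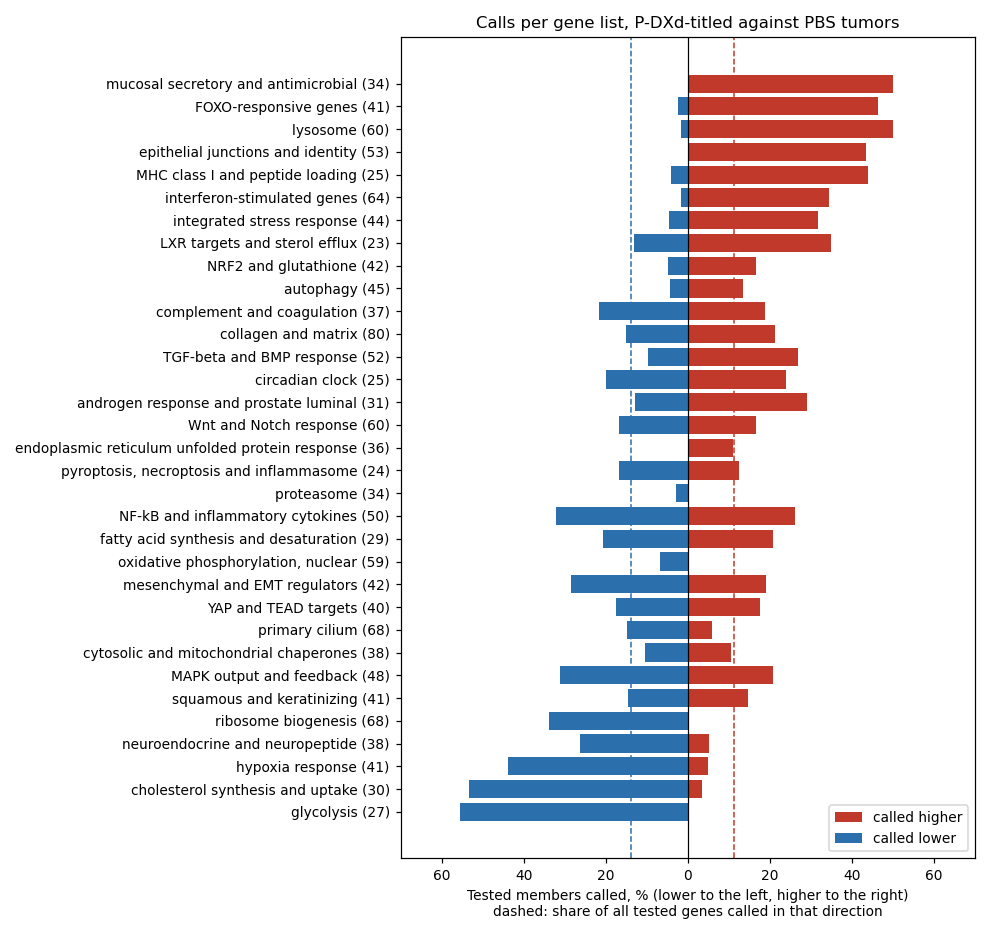
Percentage of the tested members of each gene list called lower (blue, to the left) and higher (red, to the right) in P-DXd-titled against PBS tumors, lists ordered by median log2 fold change and followed by the number of members tested. Dashed lines mark the shares over all tested genes, 11.2% higher and 13.8% lower; lysosome genes reach 50% higher and glycolysis genes 55.6% lower.

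Lysosome genes rose broadly. Of 60 tested, 30 rose (50%) and 1 fell, with a median log2 fold change of 0.70, and 44 had all P-DXd-titled libraries above all PBS libraries. The count of rises was 28 without the muscle-rich library and 20 to 31 over the 6 fits that each left out 1 library. Enzymes that break down glycans and lipids led the list. HEXA (ENSG00000213614.5), a subunit of the hexosaminidase that degrades ganglioside GM2, was 1.29, 0.660 and 1.05 CPM in the PBS libraries and 3.54, 4.33 and 4.94 CPM in the P-DXd-titled libraries (log2 fold change 2.1 with SE 0.32 and adjusted p 0.00468). ASAH1, acid ceramidase, was 65.4, 80.1 and 93.2 CPM in the PBS libraries and 229.9, 205 and 239 CPM in the P-DXd-titled libraries (log2 fold change 1.5 with SE 0.15 and adjusted p 0.00160). For both of these the groups did not overlap. PSAP, precursor of the saposins that present lipids to those enzymes, was 671, 725 and 747 CPM with PBS and 1354, 1264 and 1543 CPM with the conjugate (log2 fold change 0.96 with SE 0.11 and adjusted p 0.00236), and the tetraspanin CD63 of late endosomes was 453, 632 and 684 CPM with PBS and 1276, 1146 and 1337 CPM with the conjugate (log2 fold change 1.09 with SE 0.17 and adjusted p 0.00486). Membrane proteins moved less evenly. LAMP2 rose by 0.59, whereas LAMP1 reached an adjusted p of 0.00743 at a log2 fold change of 0.55, under the fold change minimum, and LAMP2 was not called without PBS replicates 1 (0.45) or 2 (0.64) or treated replicates 1 (0.52) or 3 (0.56). IDUA, SLC17A5 and MANBA, which take apart or export sugars, rose by 1.51, 1.39 and 1.32. IDUA was not called without PBS replicate 2 (1.72) or treated replicates 1 (1.60), 2 (1.53) or 3 (1.39), SLC17A5 without PBS replicate 2 (1.5) or treated replicates 1 (1.34), 2 (1.46) or 3 (1.37), nor MANBA without treated replicate 3 (1.2).

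The proteases of the same compartment divided. CTSD, the aspartic protease cathepsin D, was 202, 391 and 439 CPM in the PBS libraries and 789.8, 695 and 859 CPM in the P-DXd-titled libraries (log2 fold change 1.18 with SE 0.27 and adjusted p 0.0171), and it was not called without treated replicates 1 (1.17) or 3 (1.11). PBS replicate 1 was the lowest library for it. CTSB and CTSL, cysteine proteases of the kind that cut peptide linkers, were not called, at log2 fold changes of 0.60 (adjusted p 0.115) and 0.24 (adjusted p 0.105). CTSV was the member that fell, from 15.8, 14.6 and 14.2 CPM to 5.72, 5.33 and 5.35 CPM (log2 fold change -1.44 with SE 0.14 and adjusted p 0.00151). The transcription factor MITF rose by 0.76 (adjusted p 0.0101), and its relatives TFEB and TFE3 were not called (0.71 and 0.33, adjusted p 0.0801 and 0.0777). These factors bind the letters TCACGTG in promoters of lysosome genes, a motif added here after the values were seen. RefSeq promoters (250 bases before to 50 after a gene's start, GRCh38.p14) were matched for 20 of the 30 rising genes, and 5 held the letters on either strand (25.0%), against 6.76% of the promoters of tested genes and 3.71% of all promoters. Among the other list members 6 of 20 held them. A stretch of the CTSD promoter (chr11:1763938-1764004, minus strand) and one of NEU1 (chr6:31862912-31862978, minus strand), the sialidase, are shown 5′ to 3′ as examples of a rising enzyme gene, with one match each in capitals, read on the opposite strand for CTSD.
CTSD: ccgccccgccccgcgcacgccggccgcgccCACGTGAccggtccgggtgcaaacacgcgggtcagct
NEU1: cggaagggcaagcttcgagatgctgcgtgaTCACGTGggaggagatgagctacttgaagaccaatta

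Autophagy genes, which feed the lysosome, changed at a few points. Of 45 tested, 6 rose (13.3%) and 2 fell (4.44%), against 11.2% and 13.8% over all genes, and the median was 0.34. GABARAPL1, an Atg8 protein of the autophagosome membrane, was 26.1, 35.5 and 36.3 CPM in the PBS libraries and 99.0, 111 and 106 CPM in the P-DXd-titled libraries (log2 fold change 1.69 with SE 0.15 and adjusted p 0.00151). SQSTM1, the cargo receptor p62, was 274, 358 and 364 CPM with PBS and 705, 657 and 765 CPM with the conjugate (log2 fold change 1.09 with SE 0.14 and adjusted p 0.00281), and DRAM1 rose by 0.84. ATG16L2 and ATG16L1 were the members that fell, with log2 fold changes of -1.31 and -0.94, and ATG16L1 was not called without PBS replicate 2 (-0.77) or treated replicates 1 (-1.0), 2 (-0.90) or 3 (-0.92).

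Epithelial genes rose, with no member lower. Of 53 tested genes, 23 rose (43.4%) and 0 fell (median 0.62). The rises were 14 (26.4%) without PBS replicate 2, 13 (24.5%) without treated replicate 1, 15 (28.3%) without treated replicate 2 and 12 (22.6%) without treated replicate 3. Over all genes the shares higher in those fits were 7.26%, 7.67%, 7.08% and 5.21%. Tight junction genes were among the largest changes. CLDN1 (ENSG00000163347.5), a claudin that seals the space between cells, was 59.0, 159 and 155 CPM in the PBS libraries and 588, 486 and 557 CPM in the P-DXd-titled libraries (log2 fold change 2.13 with SE 0.36 and adjusted p 0.00625). CLDN4 was 183, 223 and 234 CPM in the PBS libraries and 658, 554 and 723 CPM in the P-DXd-titled libraries (log2 fold change 1.60 with SE 0.15 and adjusted p 0.00151). Their groups did not overlap, and PBS replicate 1 was lowest for both. CLDN3, OCLN, CRB3 and LSR also rose, by 1.94, 1.28, 1.19 and 1.04, of which CLDN3 was not called without PBS replicate 2 (2.1) or treated replicates 1 (1.92), 2 (2.01) or 3 (1.90) and OCLN was not called without treated replicates 1 (1.22) or 3 (1.25). Surface proteases and their inhibitors rose beside them, SPINT2 by 1.0, SPINT1 by 1.13 and PRSS8 by 1.0. SPINT1 was not called without treated replicate 3 (1.08), and PRSS8 was not called without PBS replicate 2 (1.01) or treated replicates 1 (1.0), 2 (1.09) or 3 (0.91). Simple epithelial keratins followed, with KRT8 at 403, 469.7 and 515 CPM with PBS and 1102, 1043 and 1224 CPM with the conjugate (log2 fold change 1.28 with SE 0.13 and adjusted p 0.00160) and KRT18 at 0.70 in log2 terms; these keratins overlap each other in the table and have many processed copies, so their counts are uncertain.

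Not all epithelial genes shared that rise, and the regulators of epithelial state divided. CDH1, E-cadherin, was 236, 243 and 248 CPM with PBS and 279.6, 245 and 294 CPM with the conjugate (log2 fold change 0.17 with SE 0.10 and adjusted p 0.224), and the desmosomal genes DSP and PKP2 lay at -0.19 and -0.036 on the log2 scale (adjusted p 0.278 and 0.863). GRHL2, ESRP1 and ESRP2, which set epithelial transcription and splicing, lay at 0.073, 0.18 and 0.17 (adjusted p 0.573, 0.324 and 0.294). OVOL2 and GRHL1 did rise, by 0.75 and 1.4, although GRHL1 was not called without PBS replicate 2 (1.5) or treated replicates 1 (1.34), 2 (1.47) or 3 (1.41). ELF3, an epithelial transcription factor, rose by 1.64 (adjusted p 0.0430), and its groups did not overlap. Its adjusted p was 0.0957 without treated replicate 2 (log2 fold change 1.67). Of the receptors that the conjugates bind, ERBB2 passed the test and ERBB3 did not. ERBB2, which encodes HER2, was 63.2, 118 and 131 CPM in the PBS libraries and 287, 285 and 372 CPM in the P-DXd-titled libraries (log2 fold change 1.60 with SE 0.27 and adjusted p 0.00652). ERBB3, which encodes HER3, was 27.1, 66.0 and 72.9 CPM in the PBS libraries and 103, 90.6 and 104 CPM in the P-DXd-titled libraries (log2 fold change 0.84 with SE 0.33 and adjusted p 0.0860). For both receptors the groups did not overlap, and PBS replicate 1 was the lowest library.

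Mucosal secretory and antimicrobial genes had the highest median of the 33 program lists. Of 34 tested, 17 rose and 0 fell (median 1.0), and the rises were 11 without PBS replicate 2, 10 without treated replicate 1 and 9 without treated replicate 3. CEACAM6 (ENSG00000086548.8), a glycolipid-anchored adhesion protein of glandular epithelium, was 0.259, 2.00 and 1.74 CPM in the PBS libraries and 59.0, 33 and 60.7 CPM in the P-DXd-titled libraries (log2 fold change 5.24 with SE 0.69 and adjusted p 0.00313). RARRES3, a retinoid-induced phospholipase, was 6.46, 15.5 and 18.3 CPM in the PBS libraries and 97.5, 87.9 and 83.0 CPM in the P-DXd-titled libraries (log2 fold change 2.74 with SE 0.36 and adjusted p 0.00309). The acute-phase protein gene SAA1 was 5.69, 7.23 and 8.18 CPM in the PBS libraries and 41.5, 32.3 and 54.9 CPM in the P-DXd-titled libraries (log2 fold change 2.61 with SE 0.23 and adjusted p 0.00151). Each of these was several-fold higher in all treated tumors, the muscle-rich one included. PSCA, prostate stem cell antigen, was 0.517, 2.29 and 2.51 CPM in the PBS libraries and 12.5, 8.39 and 14.9 CPM in the P-DXd-titled libraries (log2 fold change 2.75 with SE 0.56 and adjusted p 0.0115), and was not called without treated replicate 3 (2.56). SLPI, a protease inhibitor of mucosal fluids, rose by 1.22, and S100P by 2.2. LYZ, lysozyme, rose by 2.92 from 1.81, 0.660 and 0.709 CPM and is also on the macrophage list.

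**Figure D2:**
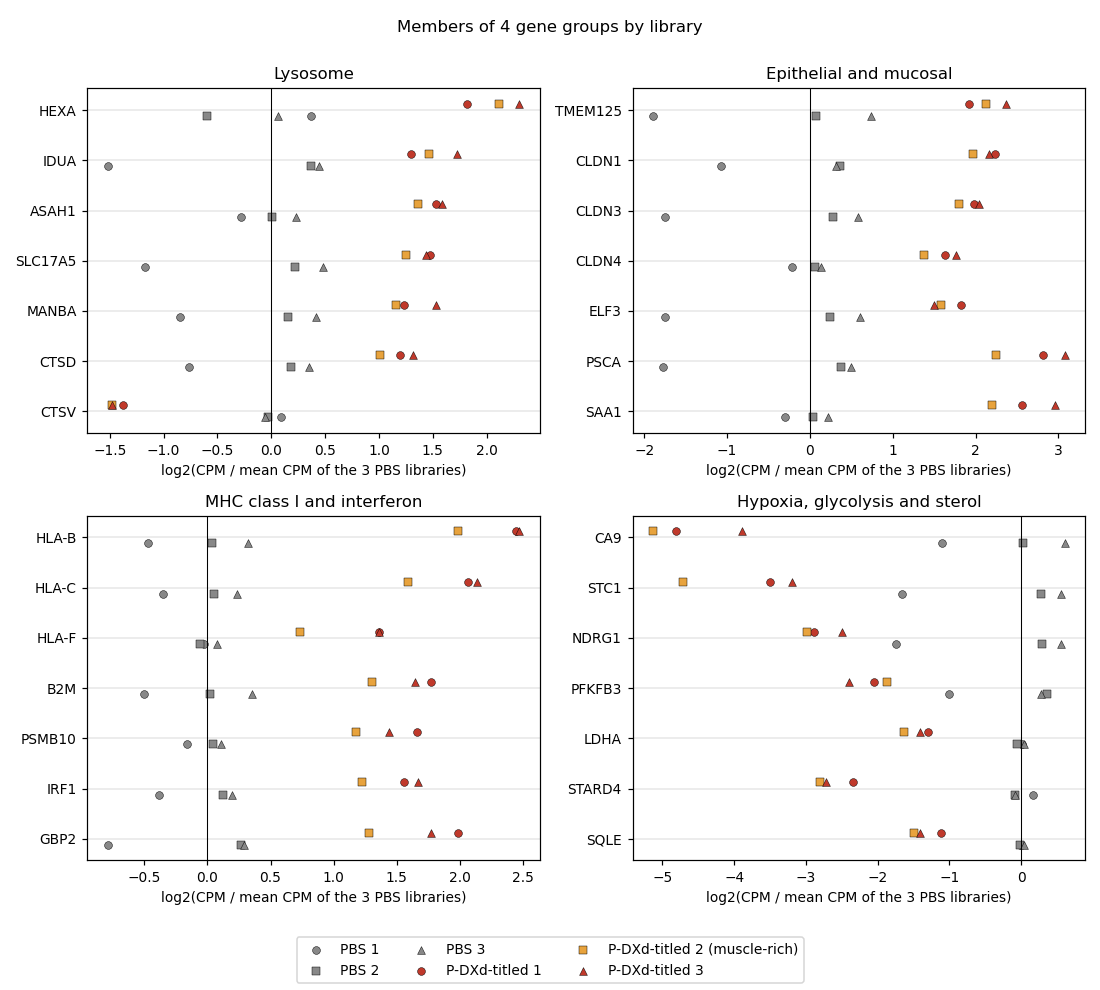
Level of 28 genes in each library as log2 of CPM over the mean CPM of the 3 PBS libraries, in 4 panels of 7 genes; gray symbols are PBS, red symbols treated replicates 1 and 3, and orange squares the muscle-rich treated replicate 2. All P-DXd-titled symbols lie to one side of all PBS symbols for every gene drawn, and PBS replicate 1 (gray circle) is lowest of all for the 7 epithelial and mucosal genes.

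The mesenchymal list went both ways. Of 42 tested, 12 fell and 8 rose (median -0.065). FN1, fibronectin, was 1824, 2279.8 and 2881 CPM in the PBS libraries and 591, 591 and 628 CPM in the P-DXd-titled libraries (log2 fold change -1.95 with SE 0.17 and adjusted p 0.00151). SNAI2, a repressor of E-cadherin, was 134, 77.1 and 63.5 CPM in the PBS libraries and 31.0, 20.2 and 17.9 CPM in the P-DXd-titled libraries (log2 fold change -1.99 with SE 0.33 and adjusted p 0.00593), and TGFBI, a matrix protein induced by TGF-beta, was 402, 111 and 116 CPM with PBS and 30.0, 33.1 and 25.1 CPM with the conjugate (log2 fold change -2.84 with SE 0.52 and adjusted p 0.00813). All 3 were lower in each treated tumor than in each PBS tumor. SPARC and TCF4 rose by 1.11 and 0.98. ZEB2 and MMP2 were higher as well, at 69.9, 120.4 and 75.6 and 44.5, 79.8 and 67.9 CPM in P-DXd-titled tumors against 53.2, 30.6 and 28.7 and 33, 14.7 and 13 CPM with PBS, but each was highest in the muscle-rich library, and ZEB2 was not called without PBS replicate 2 (1.1) or treated replicates 2 (0.96) or 3 (1.35), nor MMP2 without PBS replicate 2 (1.46) or treated replicates 2 (1.48) or 3 (1.63). The rises on this list were 3 without PBS replicate 2 or treated replicate 2, 5 without PBS replicate 3 and 4 without treated replicate 3.

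Matrix genes likewise split, 17 of 80 higher (21.25%) and 12 lower (15%), against 11.2% and 13.8% over all genes. The rises were 9 without PBS replicate 2 or treated replicate 2 and 8 without treated replicate 3, while falls ranged from 10 to 13 over all 6 fits without 1 library. COL6A3, a chain of type VI collagen, was 151, 169 and 155 CPM in the PBS libraries and 18.1, 13.6 and 13 CPM in the P-DXd-titled libraries (log2 fold change -3.41 with SE 0.16 and adjusted p 9.66e-04), the smallest adjusted p among the list's members. COL7A1, the anchoring fibril collagen, was 556, 398 and 279 CPM in the PBS libraries and 29.9, 40.4 and 37.6 CPM in the P-DXd-titled libraries (log2 fold change -3.52 with SE 0.27 and adjusted p 0.00146). Falls also took in LAMA3 (-1.32), COL17A1 (-1.88) and COL4A6 (-1.47), all of epithelial basement membrane or its anchorage. Rises took in CILP, a cartilage and stromal matrix protein, at 0.562, 0.598 and 0.390 CPM in the PBS libraries and 9.33, 15.9 and 11.9 CPM in the P-DXd-titled libraries (log2 fold change 4.58 with SE 0.30 and adjusted p 0.00139), THBS4 by 4.34, LAMA4 by 1.77 and COL18A1 by 1.60. LAMA4 was not called without treated replicate 3 (1.74). CILP belongs to the fibroblast list too, and its level was highest in the muscle-rich library.

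Genes of MHC class I, which presents peptides at the cell surface, rose. Of 25 tested, 11 rose (44%) and 1 fell (median 0.55), and the rises were 10 to 12 in the fits without 1 library. HLA-B (ENSG00000234745.5) was 378, 537 and 653 CPM in the PBS libraries and 2838, 2064 and 2896 CPM in the P-DXd-titled libraries (log2 fold change 2.31 with SE 0.23 and adjusted p 0.00162). B2M, the light chain that every class I molecule needs, was 1182, 1704 and 2140.2 CPM in the PBS libraries and 5709.8, 4136 and 5241 CPM in the P-DXd-titled libraries (log2 fold change 1.59 with SE 0.23 and adjusted p 0.00431). In both, treated replicate 2 was the lowest treated library yet stood above all PBS libraries. HLA-C rose by 1.95, HLA-E by 1.27 and HLA-F by 1.18; the classical class I genes share sequence, so reads may have been split among them. Genes of peptide supply rose as well. TAP1 rose by 0.94, TAPBP by 0.68, and the immunoproteasome subunits PSMB8, PSMB9 and PSMB10 by 0.80, 1.11 and 1.44. TAP1, PSMB8 and PSMB9 overlap in the table, and TAPBP was not called without PBS replicate 1 (0.58). RFXAP, a factor of class II transcription, was the member that fell, by 0.77 on the log2 scale, and it was not called without treated replicates 1 (-0.80), 2 (-0.81) or 3 (-0.70). TAP2 (-0.10), NLRC5 (0.21), the class I transactivator, CALR (-0.03) and PDIA3 (-0.057) were not called (adjusted p 0.673, 0.350, 0.846 and 0.706).

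Interferon-stimulated genes rose too. Of 64 tested, 22 rose and 1 fell (median 0.53), and the rises were 11 without PBS replicate 2, 14 without treated replicate 1 and 9 without treated replicate 3. IRF1, a transcription factor of the interferon-gamma response, was 33, 46.7 and 49.1 CPM in the PBS libraries and 126.2, 100.1 and 136 CPM in the P-DXd-titled libraries (log2 fold change 1.49 with SE 0.19 and adjusted p 0.00269). GBP2, a guanylate-binding protein, was 17.4, 36.1 and 36.7 CPM with PBS and 119, 72.9 and 103 CPM with the conjugate (log2 fold change 1.71 with SE 0.31 and adjusted p 0.00800). IDO1, which degrades tryptophan, was 2.15, 4.25 and 4.61 CPM with PBS and 16.4, 13 and 22.1 CPM with the conjugate (log2 fold change 2.22 with SE 0.33 and adjusted p 0.00461). ISG15, a ubiquitin-like modifier, rose by 0.76 and IFI6 by 0.80. The member that fell was IRF9, the DNA-binding part of the complex that answers type I interferon, at 9.98, 4.93 and 3.64 CPM in the PBS libraries and 1.04, 0.978 and 1.1 CPM in the P-DXd-titled libraries (log2 fold change -2.57 with SE 0.40 and adjusted p 0.00509); it overlaps another listed gene. The interferon motif, letters GAAANNGAA on either strand, was found in 10 of 14 matched promoters of rising interferon genes and in 6 of 9 of rising class I genes, against 9.12% of the promoters of tested genes and 8.11% of all promoters. The members that were not called higher held it as well, in 26 of 35 and 6 of 12 promoters. Stretches from B2M (chr15:44711343-44711411, plus strand), PSMB10 (chr16:67936851-67936901, minus strand) and TAP1 (chr6:32853793-32853861, minus strand) are shown 5′ to 3′ because these rising genes cover the light chain, the immunoproteasome and the peptide transporter, with one match each in capitals, read on the opposite strand for TAP1.
B2M: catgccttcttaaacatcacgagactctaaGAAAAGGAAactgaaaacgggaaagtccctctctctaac
PSMB10: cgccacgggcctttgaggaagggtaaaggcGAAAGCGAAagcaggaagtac
TAP1: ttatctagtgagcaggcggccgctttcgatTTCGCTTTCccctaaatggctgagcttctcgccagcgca

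The NF-kB and cytokine list divided sharply, and its 50 tested members gave 13 rises and 16 falls (median 0.06). Interleukin-1 and neutrophil-attracting chemokines were among the falls. IL1A was 174, 56.5 and 33.2 CPM in the PBS libraries and 8.13, 7.38 and 5.61 CPM in the P-DXd-titled libraries (log2 fold change -3.64 with SE 0.61 and adjusted p 0.00630). IL1B was 287, 126.2 and 66.8 CPM in the PBS libraries and 27.7, 17.8 and 22.6 CPM in the P-DXd-titled libraries (log2 fold change -2.82 with SE 0.51 and adjusted p 0.00786). IL8, the chemokine CXCL8, was 454, 244 and 224 CPM in the PBS libraries and 121, 88.7 and 117 CPM in the P-DXd-titled libraries (log2 fold change -1.49 with SE 0.28 and adjusted p 0.00921). For each of the 3, PBS replicate 1 was the highest library, and the other PBS libraries also exceeded every treated one. CXCL1, CXCL2 and CXCL3, near-identical paralogs whose reads may be shared, had log2 fold changes of -1.77, -2.09 and -1.76 and were called with all libraries. CXCL1 was not called without treated replicates 1 (-1.72), 2 (-1.72) or 3 (-1.88), CXCL2 was not called without treated replicates 1 (-2.11), 2 (-2.11) or 3 (-2.04), and CXCL3 was not called without treated replicates 1 (-1.78), 2 (-1.80) or 3 (-1.69). PTGS2, the inducible cyclooxygenase, was 524, 42.4 and 39.0 CPM in the PBS libraries and 5.13, 2.93 and 4.48 CPM in the P-DXd-titled libraries (log2 fold change -5.59 with SE 1.16 and adjusted p 0.0122), with PBS replicate 1 far above its partners, and was not called without treated replicates 2 (-5.38) or 3 (-5.63). IL11, a cytokine of the IL-6 family, fell by 2.71 (adjusted p 0.00151). The falls were 9 without treated replicate 2 and 8 without treated replicate 3.

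Chemokines of the lymphocyte and myeloid kind rose on the same list. CCL5, a chemokine that draws T cells and monocytes, was 5.01, 6.76 and 6.62 CPM in the PBS libraries and 34.4, 36.7 and 49.8 CPM in the P-DXd-titled libraries (log2 fold change 2.71 with SE 0.20 and adjusted p 0.00139). CSF1, the growth factor of macrophages, was 15.4, 25.6 and 24.6 CPM in the PBS libraries and 63.2, 56.2 and 70.7 CPM in the P-DXd-titled libraries (log2 fold change 1.54 with SE 0.21 and adjusted p 0.00330), and IL34, the other ligand of the CSF1 receptor, was 0.135, 0.117 and 0.177 CPM with PBS and 1.82, 3.56 and 3.35 CPM with the conjugate (log2 fold change 4.33 with SE 0.40 and adjusted p 0.00151). CXCL16 and CCL20 rose by 1.53 and 1.28. NFKBIA, the inhibitor that NF-kB itself induces, rose by 0.79, while TNFAIP3, induced by the same factor, fell by 1.32 on the log2 scale; TNFAIP3 was not called without treated replicate 3 (-1.3). The NF-kB motif GGANTTTCC was found in 8 of 13 matched promoters of falling members, in 1 of 6 of rising members, and in 2.3% of the promoters of tested genes and 1.64% of all promoters. All members that were not called lower, the rising ones included, held it in 8 of 21 promoters. IL8 (chr4:73740448-73740516, plus strand) and CXCL1 (chr4:73869285-73869353, plus strand) are shown because they are falling chemokine genes with the motif, in capitals, close to the start.
IL8: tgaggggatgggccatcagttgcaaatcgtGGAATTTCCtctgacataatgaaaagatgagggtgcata
CXCL1: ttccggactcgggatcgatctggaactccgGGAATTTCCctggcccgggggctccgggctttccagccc

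**Figure D3:**
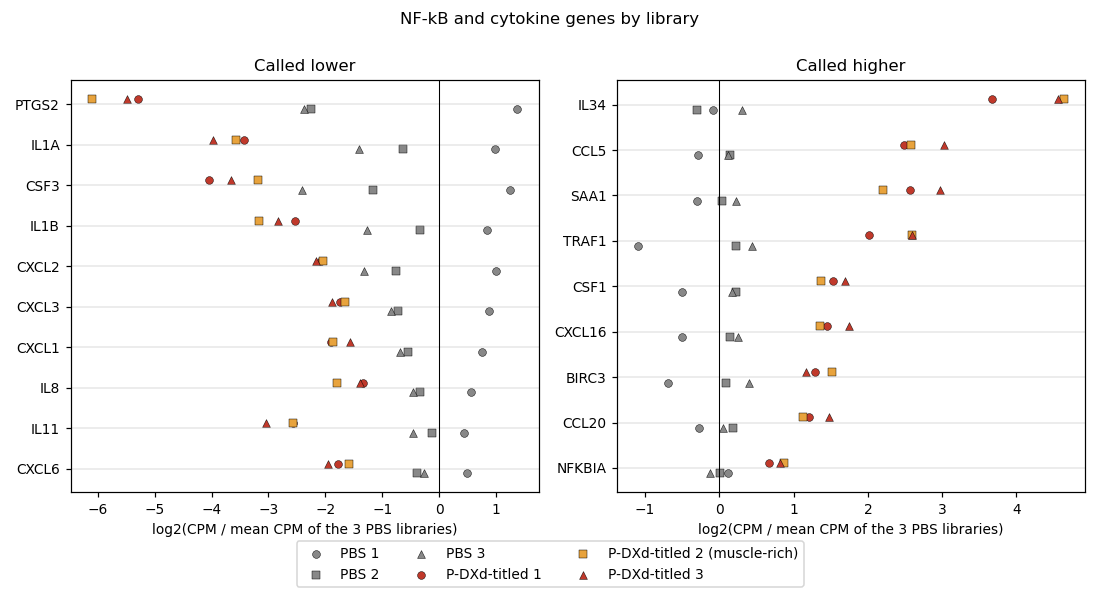
Level of 19 NF-kB and cytokine genes in each library as log2 of CPM over the mean CPM of the 3 PBS libraries, 10 called lower on the left and 9 called higher on the right, with symbols by library. PBS replicate 1 (gray circle) is the highest library for all 10 falling genes, and every P-DXd-titled library lies below every PBS library for them.

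Hypoxia-response genes fell, led by CA9. Of 41 tested, 18 fell (43.9%) and 2 rose (median -0.61), and the falls were 14 to 22 over the fits without 1 library. CA9 (ENSG00000107159.8), a carbonic anhydrase of the cell surface, was 10.5, 22.9 and 34.3 CPM in the PBS libraries and 0.801, 0.645 and 1.52 CPM in the P-DXd-titled libraries (log2 fold change -4.51 with SE 0.53 and adjusted p 0.00233). ANGPTL4, an inhibitor of lipoprotein lipase, was 19.6, 25.2 and 29.4 CPM in the PBS libraries and 1.91, 2.45 and 2.49 CPM in the P-DXd-titled libraries (log2 fold change -3.44 with SE 0.21 and adjusted p 0.00139). VEGFA, the vessel growth factor, was 156, 304 and 243 CPM with PBS and 96.5, 79.4 and 76.7 CPM with the conjugate (log2 fold change -1.48 with SE 0.24 and adjusted p 0.00567). NDRG1 was 501, 2071 and 2488 CPM with PBS and 227, 214 and 298 CPM with the conjugate (log2 fold change -2.78 with SE 0.54 and adjusted p 0.00998), and PBS replicate 1 lay nearer to the treated libraries than to its partners. PDK1, BNIP3 and PLOD2 fell too, with log2 fold changes of -1.76, -1.06 and -1.18, and STC1, stanniocalcin, with -3.66. EFNA1 and RORA were the members that rose, by 1.1 and 1.4, but EFNA1 was not called without treated replicates 1 (0.96) or 3 (1.15). RORA was highest in the muscle-rich library and was not called without PBS replicates 2 (1.29) or 3 (1.28) or treated replicate 2 (0.94).

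Glycolysis was the list with the lowest median, -0.73, with 15 of 27 genes lower and 0 higher. The falls ran from glucose entry to lactate export. LDHA (ENSG00000134333.9), which turns pyruvate into lactate, was 2033, 1939 and 2079 CPM in the PBS libraries and 821, 653 and 761 CPM in the P-DXd-titled libraries (log2 fold change -1.44 with SE 0.12 and adjusted p 0.00151). TPI1, triose phosphate isomerase, was 711, 696 and 718 CPM in the PBS libraries and 345, 322 and 330.2 CPM in the P-DXd-titled libraries (log2 fold change -1.09 with SE 0.089 and adjusted p 0.00151). GPI was 248, 211 and 213 CPM with PBS and 117, 121 and 117 CPM with the conjugate (log2 fold change -0.92 with SE 0.10 and adjusted p 0.00193). PBS libraries were close to each other for these genes, PBS replicate 1 included. Log2 fold changes were -1.25 for the entry enzyme HK2, -2.09 for the regulator PFKFB3, -0.88 for GAPDH, -0.75 for PGK1 and -0.73 for the lactate exporter SLC16A3, and PGK1 was not called without treated replicates 1 (-0.73) or 3 (-0.72). Over the 6 fits without 1 library the falls were 11 to 15. The hypoxia motif ACGTG, 5 letters that also lie within TCACGTG, was found in 8 of 10 matched promoters of falling hypoxia genes and 10 of 14 of falling glycolysis genes, against 31.1% of the promoters of tested genes and 21.4% of all promoters. Members that were not called lower held it in 10 of 22 and 5 of 11 promoters. CA9 (chr9:35673880-35673927, plus strand) and LDHA (chr11:18394447-18394511, plus strand) are shown with one match each in capitals, on the opposite strand for CA9, as a falling gene of each list.
CA9: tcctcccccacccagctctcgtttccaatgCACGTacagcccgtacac
LDHA: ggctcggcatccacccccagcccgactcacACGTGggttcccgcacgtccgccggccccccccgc

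Mitochondrial respiration did not move with glycolysis. Of 59 nuclear genes of oxidative phosphorylation tested, 0 rose and 4 fell (median -0.053). The falls were CYCS, ATP5G1, NDUFV2 and NDUFA13, the last pair at under 2 CPM in every library; CYCS, cytochrome c, was 531, 377 and 361 CPM with PBS and 251, 237 and 211 CPM with the conjugate (log2 fold change -0.86 with SE 0.17 and adjusted p 0.0100) and was not called without treated replicate 3 (-0.79). The falls were 2 without PBS replicate 2 or treated replicates 1 or 2 and 0 without treated replicate 3. COX4I1 lay at 0.055 and SDHA at -0.22 (adjusted p 0.784 and 0.147).

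Cholesterol synthesis and uptake genes fell together. Of 30 tested, 16 fell (53.3%) and 1 rose (median -0.62), and the falls were 13 to 16 over the fits without 1 library. STARD4 (ENSG00000164211.8), a cytosolic sterol carrier, was 39.7, 33.4 and 33.5 CPM in the PBS libraries and 7.02, 5.11 and 5.4 CPM in the P-DXd-titled libraries (log2 fold change -2.60 with SE 0.17 and adjusted p 0.00139). SQLE, squalene epoxidase, was 205, 204 and 213 CPM in the PBS libraries and 95.6, 73.8 and 78.1 CPM in the P-DXd-titled libraries (log2 fold change -1.33 with SE 0.12 and adjusted p 0.00151). HMGCS1, at the start of the mevalonate pathway, was 162, 135 and 135 CPM with PBS and 72.2, 64.1 and 65.9 CPM with the conjugate (log2 fold change -1.1 with SE 0.11 and adjusted p 0.00173). These groups were well apart and even within each. The sterol sensor INSIG1 fell by 0.94 on the log2 scale. The member that rose was TM7SF2, a sterol reductase, by 0.97, and it was not called without PBS replicate 2 (1.01) or treated replicates 1 (1.03), 2 (1.01) or 3 (0.86). SREBF2, the factor that drives the pathway, was 134, 146 and 149.7 CPM with PBS and 91.1, 87.6 and 101 CPM with the conjugate (log2 fold change -0.62 with SE 0.10 and adjusted p 0.00549), and was not called without treated replicate 2 (-0.57); INSIG1 was not called without treated replicate 3 (-0.87). The sterol motif TCACNCCAC was in 1 of 11 matched promoters of falling members, that of SREBF2, in 0 of 11 of the other members, and in 1.5% of the promoters of tested genes and 1.13% of all promoters.

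Sterol export genes moved the other way. Of 23 LXR target and efflux genes tested, 8 rose and 3 fell (median 0.37). LXR is the nuclear receptor that oxysterols activate. ABCA1, which loads cholesterol onto lipoproteins, was 17.7, 10.9 and 13.1 CPM in the PBS libraries and 54, 54.3 and 58.0 CPM in the P-DXd-titled libraries (log2 fold change 2.00 with SE 0.19 and adjusted p 0.00151). ABCG1, its partner in efflux, was 1.81, 1.37 and 1.24 CPM in the PBS libraries and 17.0, 13.5 and 14.4 CPM in the P-DXd-titled libraries (log2 fold change 3.35 with SE 0.22 and adjusted p 0.00139). MYLIP, a ubiquitin ligase that LXR induces, was 11.6, 12 and 12.2 CPM in the PBS libraries and 49.9, 54.7 and 47.6 CPM in the P-DXd-titled libraries (log2 fold change 2.09 with SE 0.11 and adjusted p 0.00113), and CYP27A1, which makes 27-hydroxycholesterol, was 0.292, 1.97 and 3.38 CPM with PBS and 24.2, 26.2 and 34.8 CPM with the conjugate (log2 fold change 3.91 with SE 0.73 and adjusted p 0.00863). All 4 were called without the muscle-rich library too. APOC1 and ABCA10 were among the members that fell, with log2 fold changes of -3.07 and -1.67. The rises on the list were 5 without treated replicates 2 or 3, and the falls 1 without treated replicates 1 or 2 and 0 without treated replicate 3. Fatty acid genes split, 6 higher and 6 lower of 29: SREBF1, itself an LXR target, rose by 1.08 (adjusted p 0.00151), whereas FASN, fatty acid synthase, and the desaturase FADS1 had log2 fold changes of -0.68 and -1.04, and FASN was not called without PBS replicate 1 (-0.55). The falls among fatty acid genes were 3 without treated replicate 3.

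FOXO-responsive genes, which growth factor signaling through AKT normally holds down, rose. Of 41 tested, 19 rose and 1 fell (median 0.79), and the rises were 11 without treated replicate 3. TXNIP (ENSG00000117289.7), an inhibitor of glucose uptake and of thioredoxin, was 83.9, 150.0 and 201 CPM in the PBS libraries and 599, 494 and 646 CPM in the P-DXd-titled libraries (log2 fold change 2.00 with SE 0.30 and adjusted p 0.00461). PIK3IP1, an inhibitor of PI3K, was 3.38, 5.97 and 6.45 CPM in the PBS libraries and 18.5, 20.2 and 19.5 CPM in the P-DXd-titled libraries (log2 fold change 1.88 with SE 0.25 and adjusted p 0.00314). TSC22D3, also induced by glucocorticoids, was 13.6, 16.3 and 18.7 CPM with PBS and 47.4, 63.1 and 48.4 CPM with the conjugate (log2 fold change 1.71 with SE 0.17 and adjusted p 0.00160), and BCL6, a transcriptional repressor, was 9.09, 12.7 and 14.8 CPM with PBS and 38.2, 36.3 and 40.1 CPM with the conjugate (log2 fold change 1.65 with SE 0.19 and adjusted p 0.00205). Each was higher in all treated tumors. KLF9 was 5.08, 3.93 and 4.52 CPM with PBS and 19.4, 38.2 and 13.1 CPM with the conjugate (log2 fold change 2.38 with SE 0.38 and adjusted p 0.00558), with the muscle-rich library well above its partners. FOXO4 rose by 1.70, but FOXO1 and FOXO3 were not called (0.19 and 0.30, adjusted p 0.275 and 0.0560). The member that fell was IGF1R, the receptor for insulin-like growth factors, from 69.0, 48.9 and 41.9 CPM to 25.7, 27.5 and 27.7 CPM (log2 fold change -0.98 with SE 0.19 and adjusted p 0.00895), whereas IRS2 rose by 1.1 and was not called without PBS replicate 2 (1.15) or treated replicates 1 (1.06), 2 (1.16) or 3 (1.08).

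Among genes of MAPK output, 15 of 48 fell and 10 rose (median -0.19). Ligands of the ERBB receptors were among the falls. TGFA was 214, 142 and 138 CPM in the PBS libraries and 74.7, 52.0 and 62.1 CPM in the P-DXd-titled libraries (log2 fold change -1.39 with SE 0.21 and adjusted p 0.00471), and AREG, EREG, EPGN and HBEGF had log2 fold changes of -2.28, -1.70, -1.32 and -0.63 and were called lower. Of these 4, AREG was not called without treated replicates 1 (-2.23), 2 (-2.11) or 3 (-2.53), EREG without PBS replicates 2 (-1.86) or 3 (-1.82) or treated replicates 1 (-1.38), 2 (-1.71) or 3 (-2.11), EPGN without treated replicates 2 (-1.06) or 3 (-1.26), nor HBEGF without PBS replicates 1 (-0.58) or 2 (-0.51) or treated replicates 1 (-0.70), 2 (-0.67) or 3 (-0.51). BTC, betacellulin, was the ligand that rose, by 0.87, and it was not called without treated replicates 1 (0.75) or 3 (0.86). FOSL1, an AP-1 subunit, was 228, 149 and 127 CPM with PBS and 58.4, 66.3 and 47.1 CPM with the conjugate (log2 fold change -1.55 with SE 0.24 and adjusted p 0.00482). Negative regulators of the pathway did not share one direction: SPRY4 and SPRY1 rose by 0.84 and 1.38, and DUSP7 fell by 1.37 on the log2 scale. The falls on the list were 8 without treated replicates 1 or 2 and 7 without treated replicate 3, and the rises 6 without treated replicate 3.

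The integrated stress response, by which cells answer amino acid shortage or protein stress, rose in part. Of 44 tested, 14 rose and 2 fell (median 0.44), and the rises were 8 without treated replicate 3. GDF15 (ENSG00000130513.6), a secreted stress signal, was 10.3, 27.5 and 24.4 CPM in the PBS libraries and 209.8, 136 and 175 CPM in the P-DXd-titled libraries (log2 fold change 3.06 with SE 0.37 and adjusted p 0.00248). It is also on the TGF-beta list, and the cause of its rise was not tested. DDIT3, the factor CHOP, was 19.3, 26 and 27.6 CPM with PBS and 47.7, 46.2 and 45.1 CPM with the conjugate (log2 fold change 0.93 with SE 0.15 and adjusted p 0.00537). ASNS, asparagine synthetase, was 48.2, 56.7 and 69.1 CPM with PBS and 93.4, 102 and 102 CPM with the conjugate (log2 fold change 0.78 with SE 0.14 and adjusted p 0.00815). NUPR1 and JDP2 rose by 1.42 and 1.65. SLC7A5, an amino acid importer, fell by 0.74 on the log2 scale and was not called without PBS replicates 1 (-0.48) or 2 (-0.83) or treated replicates 1 (-0.78), 2 (-0.63) or 3 (-0.82). DDIT4, also a hypoxia target, fell from 80.5, 181 and 168 CPM to 50.7, 29.4 and 30.2 CPM (log2 fold change -1.96 with SE 0.35 and adjusted p 0.00745). The motif TGATGNAA was in 4 of 13 matched promoters of rising members, in 10 of 25 of the other members, and in 3.15% of the promoters of tested genes and 3.62% of all promoters.

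Other arms of protein quality control had few calls. The unfolded protein response had 4 rises in 36 genes, led by DNAJB9 at 1.05, with 2 without PBS replicate 2 and 1 without treated replicates 1 or 3. HSPA5, its chief chaperone, was 1205, 1302 and 1318 CPM with PBS and 1529, 1345 and 1552 CPM with the conjugate (log2 fold change 0.21 with SE 0.11 and adjusted p 0.156). Proteasome subunits had 0 rises and 1 fall in 34, PSMD2 at -0.83 (adjusted p 0.00652). Chaperones had 4 rises and 4 falls in 38, counts that became 2 without PBS replicate 2 or treated replicates 1 or 3 for rises and 0 without PBS replicate 1, 8 without PBS replicate 3 and 1 without treated replicates 2 or 3 for falls. The largest rise was the small heat shock protein CRYAB, at 3.66, 9.31 and 7.19 CPM in the PBS libraries and 37.4, 53.3 and 47.6 CPM in the P-DXd-titled libraries (log2 fold change 2.77 with SE 0.34 and adjusted p 0.00249). NRF2 and glutathione genes had 7 rises and 2 falls in 42 (median 0.34); the rises were 12 without PBS replicate 1, 2 without PBS replicate 2, 4 without treated replicate 1 and 1 without treated replicate 3. ABCC2 and TKT were its falls, with log2 fold changes of -1.4 and -0.64, and the falls were 1 without PBS replicate 1 and 0 without treated replicates 1, 2 or 3. Within the list GPX4, which guards against lipid peroxidation, rose by 0.67 and was not called without PBS replicate 1 (0.53) or treated replicate 3 (0.70).

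Ribosome biogenesis genes fell with no exception among those called. Of 68 tested, 23 fell and 0 rose (median -0.49), 66 had a negative log2 fold change, and 50 had all treated libraries below all PBS libraries. NPM1, nucleophosmin, was 2202, 1654 and 1431 CPM in the PBS libraries and 935, 912 and 786 CPM in the P-DXd-titled libraries (log2 fold change -1.01 with SE 0.17 and adjusted p 0.00688). TCOF1, a factor of ribosomal DNA transcription, was 258, 202 and 156 CPM with PBS and 90.0, 92.3 and 85.7 CPM with the conjugate (log2 fold change -1.2 with SE 0.18 and adjusted p 0.00454). NCL, nucleolin, was 1514, 1173 and 1148 CPM with PBS and 728, 765 and 645 CPM with the conjugate (log2 fold change -0.84 with SE 0.14 and adjusted p 0.00632). PBS replicate 1 was the highest library for all 3. The falls were 14 without PBS replicate 1, 13 without treated replicate 2 and 11 without treated replicate 3.

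Of the lineage programs outside the simple epithelium, neuroendocrine genes leaned lower, prostate luminal genes leaned higher, and squamous genes had shares near the background. Neuroendocrine and neuropeptide genes had 10 falls (26.3%) and 2 rises (5.26%) in 38 (median -0.60), and the falls were 6 without treated replicate 3. SCG5, a secretory granule chaperone, was 110.3, 62.0 and 58.7 CPM in the PBS libraries and 6.72, 5.16 and 3.49 CPM in the P-DXd-titled libraries (log2 fold change -3.91 with SE 0.35 and adjusted p 0.00151), and the neuropeptide gene GAL was 6.34, 2.09 and 1.06 CPM with PBS and 0.239, 0.240 and 0.290 CPM with the conjugate (log2 fold change -3.62 with SE 0.70 and adjusted p 0.00964). The defining factors INSM1 and NEUROD1 were not among the genes tested. PCSK1N and SYT11 rose by 1.54 and 1.36 (adjusted p 0.00945 and 0.0280), and SYT11 was not called without PBS replicates 2 (1.3) or 3 (1.3) or treated replicates 2 (1.09) or 3 (1.31).

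Squamous genes had 6 rises and 6 falls in 41 (14.6% each), near the 11.2% higher and 13.8% lower over all genes. The falls were 1 without treated replicates 1 or 2 and 2 without treated replicate 3, and the rises 1 without PBS replicate 2 or treated replicate 3 and 2 without treated replicate 1. S100A2, a calcium-binding protein of basal squamous cells, was 1587, 587 and 470.0 CPM in the PBS libraries and 121, 125 and 145 CPM in the P-DXd-titled libraries (log2 fold change -2.76 with SE 0.45 and adjusted p 0.00596). KRT23, a keratin of glandular epithelium, was 1.54, 1.02 and 0.683 CPM with PBS and 9.88, 7.56 and 11.9 CPM with the conjugate (log2 fold change 3.18 with SE 0.35 and adjusted p 0.00193). KRT6A, which shares sequence with KRT6B and KRT6C, was 1311, 211 and 282 CPM with PBS and 79.6, 41.5 and 78.8 CPM with the conjugate, with PBS replicate 1 several-fold above its partners, and it was not called without treated replicates 1 (-3.33), 2 (-2.92) or 3 (-3.30). Its log2 fold change was -3.17 with all libraries and -1.89 without PBS replicate 1.

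Prostate luminal and androgen-regulated genes had 9 rises (29.0%) and 4 falls (12.9%) in 31 (median 0.16). The study describes PC3 as androgen-insensitive, and androgen signaling was not tested here. The prostate secretory genes KLK2, KLK3, KLK4 and FOLH1 were not among the genes tested. FOXA1, a pioneer factor of luminal cells, was 23.4, 48.6 and 51.7 CPM with PBS and 112, 101 and 115 CPM with the conjugate (log2 fold change 1.41 with SE 0.28 and adjusted p 0.0107). STEAP4, a metalloreductase, was 2.05, 3.46 and 4.49 CPM with PBS and 25.1, 19.9 and 27.4 CPM with the conjugate (log2 fold change 2.86 with SE 0.30 and adjusted p 0.00175), HOXB13 rose by 0.68, and FKBP5, which androgens and glucocorticoids both induce, fell from 39.7, 30.5 and 32.2 CPM to 12.8, 12.1 and 9.24 CPM (log2 fold change -1.58 with SE 0.17 and adjusted p 0.00192). HOXB13 was not called without PBS replicate 1 (0.55) or treated replicate 3 (0.66).

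Ligand and receptor programs of development were mixed. TGF-beta and BMP genes had 14 rises (26.9%) and 5 falls (9.62%) in 52, against 11.2% and 13.8% over all genes. The shares were 17.5% in each direction for YAP and TEAD targets and 16.7% in each for Wnt and Notch genes. The receptors TGFBR1 and ACVR2A rose by 1.18 and 0.96, the BMP decoy receptor BAMBI by 1.96 and the BMP target ID2 by 1.54. FST, follistatin, which binds activins, was 375, 154 and 118 CPM with PBS and 61.4, 56.0 and 49.3 CPM with the conjugate (log2 fold change -1.96 with SE 0.41 and adjusted p 0.0128), and was not called without treated replicate 3 (-1.87). YAP and TEAD targets had 7 rises and 7 falls in 40: CTGF was 30.5, 35.0 and 39.6 CPM with PBS and 110.04, 145 and 106 CPM with the conjugate (log2 fold change 1.78 with SE 0.16 and adjusted p 0.00151) and CYR61 rose by 0.75, while F3, tissue factor, was 305, 111 and 76.3 CPM with PBS and 21.6, 19.3 and 22.8 CPM with the conjugate (log2 fold change -2.95 with SE 0.50 and adjusted p 0.00639). Wnt and Notch genes had 10 rises and 10 falls in 60, and the Frizzled receptors divided, FZD8 being lower at a log2 fold change of -1.44 and FZD7, FZD4 and FZD2 higher at 1.29, 1.17 and 0.93. Without 1 library the rises ranged from 8 to 14 for TGF-beta, 5 to 9 for YAP and 4 to 12 for Wnt and Notch genes, with TGF-beta rises 9 without treated replicate 1 and 8 without treated replicate 3 and falls 3 without treated replicate 2 and 2 without treated replicate 3. Falls among YAP targets were 4 without treated replicate 3. Wnt and Notch rises were 6 without PBS replicate 2 or treated replicate 2 and 4 without treated replicates 1 or 3, and falls 6 without treated replicate 1 and 4 without treated replicates 2 or 3.

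Complement and coagulation genes had 7 rises (18.9%) and 8 falls (21.6%) in 37, against 11.2% and 13.8% over all genes. Among the lists that follow, shares higher and lower were 12.5% and 16.7% for pyroptosis genes and 24% and 20% for clock genes. For ciliary genes they were 5.88% and 14.7%. CLU, clusterin, a secreted chaperone that blocks complement lysis, was 27.7, 20.6 and 14 CPM in the PBS libraries and 91.5, 87.7 and 104 CPM in the P-DXd-titled libraries (log2 fold change 2.19 with SE 0.24 and adjusted p 0.00193), and CD59, which also blocks it, rose by 1.04. PLAU and PLAT, the plasminogen activators, had log2 fold changes of -0.79 and -0.84 and were called lower, though PLAU was not called without treated replicate 3 (-0.74). The rises were 4 without PBS replicate 2 and 3 without treated replicates 1, 2 or 3, and the falls 4 without treated replicates 1, 2 or 3. Of 24 pyroptosis and necroptosis genes, 3 rose, among them NINJ1, which ruptures the membrane of dying cells, at 1.57, and 4 fell, among them NLRP1 at -1.52; rises were 1 without treated replicate 3 and falls 2 without PBS replicate 2 or treated replicates 2 or 3. NINJ1 was not called without treated replicate 3 (1.52). Clock genes had 6 rises and 5 falls in 25; NR1D1 was 11.4, 8.84 and 8.16 CPM with PBS and 23.6, 46.1 and 27.6 CPM with the conjugate (log2 fold change 1.78 with SE 0.27 and adjusted p 0.00483), highest in the muscle-rich library. Clock rises were 3 without PBS replicate 2 or treated replicate 2, and falls 3 without PBS replicates 1 or 2 or treated replicate 2 and 2 without treated replicates 1 or 3. Of 68 ciliary genes 10 fell and 4 rose, with the Hedgehog receptor PTCH1 at 1.28 and the effector GLI2 at -1.39 on the log2 scale; GLI2 was not called without treated replicate 3 (-1.28). Ciliary rises were 1 without PBS replicate 2 or treated replicates 2 or 3 and 2 without treated replicate 1, and falls 6 without treated replicate 3.

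**Figure D4:**
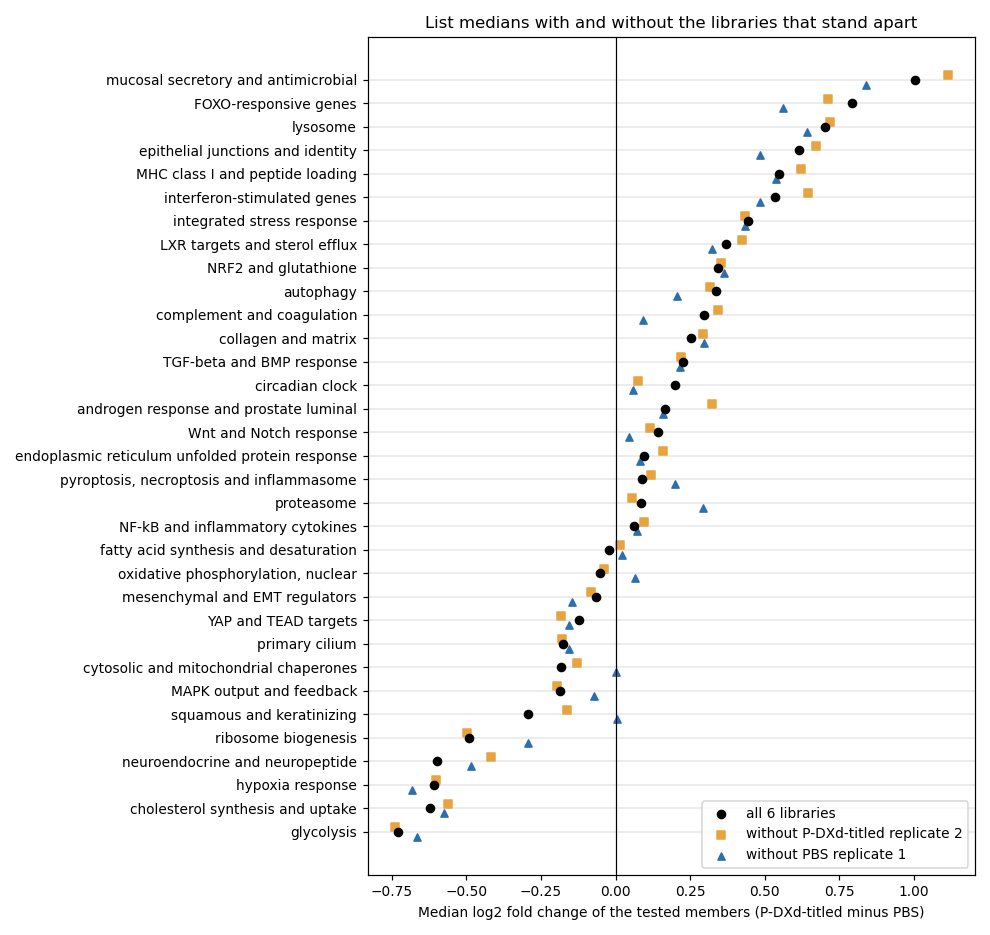
Median log2 fold change of the tested members of each program list with all 6 libraries (black), without the muscle-rich treated replicate 2 (orange) and without PBS replicate 1 (blue). Without the muscle-rich library each median keeps its sign except that of fatty acid genes; without PBS replicate 1 those of squamous, chaperone, fatty acid and oxidative phosphorylation genes cross 0, and that of FOXO-responsive genes falls from 0.79 to 0.56.

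Markers of cells other than tumor cells were counted beside these results. Median log2 fold changes were 0.95 for fibroblast markers, with 19 of 21 positive, and 1.38 for macrophage markers, with 9 of 12 positive. They were 4.5 for skeletal muscle, 1.46 for granulocyte and 1.03 for adipocyte markers. For Schwann cell, endothelial, keratinocyte and pericyte markers they were 0.22, 0.067, -0.17 and -0.35. In bulk tissue, fewer cells of a type and less RNA per cell cannot be told apart, and mouse reads reach human genes only where sequences are near-identical. The fibroblast list summed to 1137 to 2182 CPM in PBS and 1363 to 2322 CPM in P-DXd-titled tumors, with 5 of 21 genes higher, 12 without PBS replicate 1, 2 without PBS replicate 2 or treated replicates 2 or 3 and 3 without PBS replicate 3, and its defining marker THY1 was not among the genes tested. The macrophage list summed to 27.4 to 61 and 61 to 94.0 CPM, with 7 of 12 higher, 3 without PBS replicate 2 and 4 without treated replicate 3. LAPTM5 made up most of the PBS replicate 1 sum, at 31.7, 11.5 and 9.36 CPM over PBS and 9.50, 15.2 and 13.9 CPM over P-DXd-titled libraries. CSF1R, the receptor of CSF1 and IL34, was 2.48, 2.64 and 2.86 CPM in the PBS libraries and 6.47, 8.04 and 9.16 CPM in the P-DXd-titled libraries (log2 fold change 1.57 with SE 0.21 and adjusted p 0.00314). CD68, CD163, TYROBP and the C1Q genes were not among the genes tested, and the leukocyte marker PTPRC was under 2 CPM in every library. The endothelial list summed to 36.6 to 43.6 and 47.8 to 64.6 CPM with 0 of 13 called higher (3 without PBS replicate 1 and 1 without treated replicate 1), and PECAM1 was not tested. Pericyte and smooth muscle genes summed to 254 to 306 and 213 to 422 CPM, with 5 of 13 lower (3 without treated replicate 1 and 1 without treated replicate 3) and 2 higher (0 without PBS replicate 2 and 1 without PBS replicate 3 or treated replicates 2 or 3). Of the skeletal muscle genes 22 of 38 were called higher, with 8 without PBS replicate 2, 6 without PBS replicate 3, 3 without treated replicate 2 and 5 without treated replicate 3. Adipocyte markers had 2 of 7 higher (1 without PBS replicates 2 or 3 or treated replicates 2 or 3), and Schwann cell markers 1 of 10 (0 without PBS replicates 1 or 2 or treated replicates 1, 2 or 3 and 2 without PBS replicate 3). Keratinocyte markers had 1 of 11 higher (0 without PBS replicates 2 or 3 or treated replicates 1 or 3 and 2 without treated replicate 2) and 2 lower (0 without treated replicates 1 or 2 and 1 without treated replicate 3). The granulocyte list summed to 146 to 608 and 1181 to 1661 CPM over 3 genes, 2 of them called higher (0 without PBS replicate 2 or treated replicates 1 or 3 and 1 without treated replicate 2), and S100A9, which epithelial cells also make, was nearly all of the sum. The part of these cells in the rises of matrix, mucosal, lysosome, LXR and chemokine genes was not tested.

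**Figure D5:**
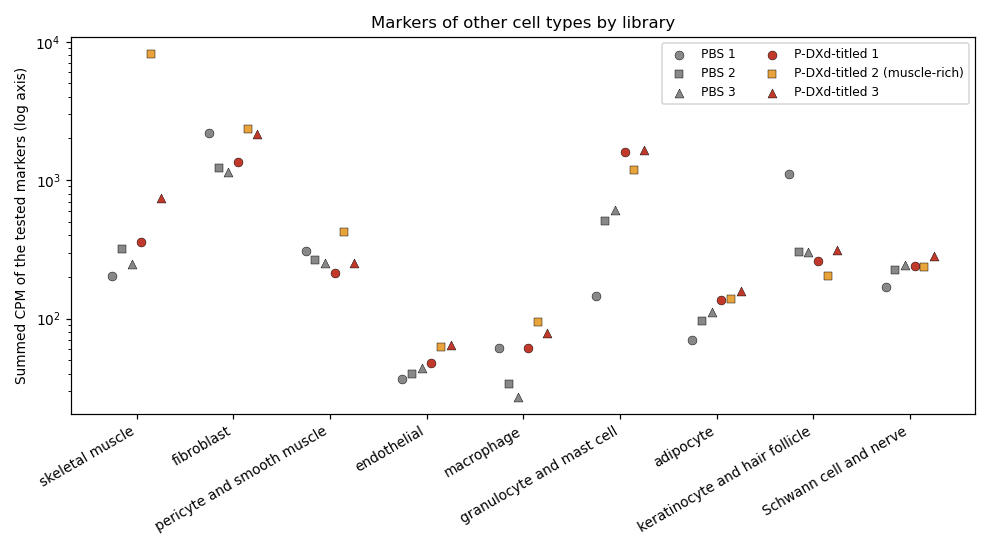
Summed CPM of the tested markers of 9 other cell types in each library, on a log axis, with gray symbols for PBS and red and orange symbols for P-DXd-titled libraries. Skeletal muscle reaches 8107 CPM in the muscle-rich replicate (orange square) and at most 738 CPM elsewhere; the macrophage sums of both groups meet at 61 CPM, the level of PBS replicate 1.

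Genes on none of the lists were named by size alone. Among those rising, IL2RG, the common chain of interleukin receptors, was 0.303, 0.536 and 0.505 CPM in the PBS libraries and 7.49, 8.06 and 10.6 CPM in the P-DXd-titled libraries (log2 fold change 4.27 with SE 0.31 and adjusted p 0.00139). FOLR1, the folate receptor, was 0.247, 0.443 and 0.355 CPM in the PBS libraries and 4.34, 4.30 and 5.50 CPM in the P-DXd-titled libraries (log2 fold change 3.74 with SE 0.31 and adjusted p 0.00151). IGFBP5, which binds insulin-like growth factors, was 7.29, 4.54 and 3.0 CPM with PBS and 56.3, 49.8 and 60.9 CPM with the conjugate (log2 fold change 3.50 with SE 0.32 and adjusted p 0.00151). MMP7, matrilysin of glandular epithelium, was 0.832, 5.16 and 6.72 CPM with PBS and 47.0, 42.4 and 60.8 CPM with the conjugate (log2 fold change 3.56 with SE 0.66 and adjusted p 0.00864). SELENBP1, SULT1E1, BCAS1, XCR1 and PLA1A rose by 3.70, 3.64, 3.56, 3.52 and 3.49. APOBEC2, a gene of muscle, rose by 5.27 and was highest in the muscle-rich library, at 1.16, 20.3 and 3.42 CPM over the treated libraries.

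Among those falling, ANPEP, the surface aminopeptidase CD13, was 293, 149 and 170.4 CPM in the PBS libraries and 19.3, 20.05 and 14.9 CPM in the P-DXd-titled libraries (log2 fold change -3.50 with SE 0.29 and adjusted p 0.00151). LRRC8C, a subunit of volume-regulated anion channels, was 47.0, 18.2 and 16.7 CPM in the PBS libraries and 1.48, 1.60 and 1.88 CPM in the P-DXd-titled libraries (log2 fold change -4.04 with SE 0.45 and adjusted p 0.00193). PIF1, a DNA helicase, was 17.3, 8.79 and 7.26 CPM with PBS and 0.765, 1.38 and 0.640 CPM with the conjugate (log2 fold change -3.59 with SE 0.45 and adjusted p 0.00282), and CRABP1, which binds retinoic acid, was 4.08, 1.21 and 0.789 CPM with PBS and 0.119, 0 and 0.198 CPM with the conjugate (log2 fold change -4.19 with SE 0.99 and adjusted p 0.0186). CRABP1 was not called without treated replicates 1 (-4.28) or 3 (-4.88). ZBED2, UCN2, UGT8, C2orf48, ARHGAP11B and CCDC150 had log2 fold changes of -3.55, -3.49, -3.43, -4.22, -3.28 and -3.20. PBS replicate 1 was the highest library for all 10 of the falling genes, and ARHGAP11B is a partial copy of ARHGAP11A, so its counts are uncertain.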

How the data were processed

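RNA from 6 PC3 xenografts was compared, 3 given PBS and 3 titled P-DXd. The authors deposited raw counts per protein-coding gene, made per their processing notes with cutadapt, STAR and featureCounts on GRCh38.p13. Of 15771 listed genes found in GENCODE 44, 664 (4.21%) started within 1000 bases of its start. The listed coordinates thus rarely match the build that the notes name, so no coordinate of the count table is printed. Which build they follow was not tested. Promoters come from RefSeq on GRCh38.p14. The authors' own comparison values were not used.

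Groups were taken from titles and column names. Counts were fitted with edgeR 4.0.16 (R 4.3.3, limma 3.58.1) by its quasi-likelihood test with TMM scaling and the filterByExpr filter, with the group as the single term and Benjamini-Hochberg adjustment over all 14945 genes tested. A call needed an adjusted p of at most 0.05 and a fold change of at least 1.5. Library totals of 54481702 to 125538606 counts limit precision for low genes. On simulated data 145 of 200 genes changed 3-fold were recovered (72.5%), with 10 false calls, of 14789 genes in all. The simulated counts were drawn independently from the dispersions of this same fit, and no library was made to stand apart. These rates therefore do not measure recovery or false calls in the real libraries, where PBS replicate 1 and treated replicate 2 did. Alternatives were DESeq2 1.42.0, RLE size factors, other filters and thresholds, all 9 libraries in 1 fit, the animal code digit as a term, muscle genes left out, and each library left out.

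The comparison and the gene lists were chosen with earlier results of these data known. By rule, text named up to 6 called members of each list by size of change, averaging 100 counts or more, whose groups did not overlap, any called member of a list with 10 or fewer, and 10 rises and 10 falls outside the lists that were also called without the muscle-rich library. ERBB2 and ERBB3 were named in any case. Other called members, and the motif TCACGTG, were chosen after their values were seen. Members not called were named as defining genes of their list. Some genes are not reported here, though list counts include them.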

Additional observations from a re-analysis of the deposited data

How the results depend on the processing

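The number of genes called, 3742 with all 6 libraries, was 3519 with the animal code digit as a term, 3543 to 4391 under DESeq2, RLE size factors, either other filter, all 9 libraries in 1 fit or muscle genes left out, 5075 with no fold change minimum, and 1130 when the test itself was set against a fold change of 1.5 (glmTreat). Leaving out 1 library gave 1857 to 3936, with 2464 without the muscle-rich P-DXd-titled replicate 2. With at least 10 counts in each library the neuroendocrine median became -0.26. Without PBS replicate 1 the squamous median turned to 0.0050 and the chaperone median to 0.0016; the cause was not tested. Over the 6 fits that each left out 1 library, these lists ran from -0.41 to 0.0050 and from -0.25 to 0.0016. Medians ran from 0.31 to 0.62 for MHC class I, 0.091 to 0.41 for complement, -0.10 to 0.065 for oxidative phosphorylation, 0.21 to 0.37 for autophagy, 0.34 to 0.45 for the integrated stress response and 0.075 to 0.16 for the unfolded protein response. They ran from -0.035 to 0.29 for the proteasome, -0.71 to -0.39 for neuroendocrine, -0.38 to -0.071 for MAPK, 0.56 to 0.86 for FOXO-responsive, 0.045 to 0.22 for Wnt and Notch, 0.058 to 0.27 for clock and 0.23 to 0.35 for matrix genes. The labels give no replicate numbers shared by the groups, and the first digit of the animal code, which both groups carry, is not said to pair animals; as a block it gave the 3519 calls above. Each P-DXd-titled library was shallower than each PBS library, so genes near 1 CPM rest on fewer reads in the treated tumors.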

Other observations

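Genes were also grouped by the stem of their symbol, a grouping chosen after the lists were examined, so that families outside them could be described. Tetraspanins, membrane organizers of which CD63 is one under another name, rose with no fall: 8 of 19 tested TSPAN genes were called higher and 0 lower (median log2 fold change 0.83). Matrix metalloproteinases had 7 of 16 higher and 1 lower (median 0.75). HLA genes, class II members included, had 7 of 14 higher and 1 lower (median 1.58). CXCL chemokines were divided, 5 of 12 higher and 5 lower, although their median was 1.05.

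The families with the lowest medians serve cell division and the architecture of the nucleus and Golgi. Kinesins had 13 of 34 KIF genes lower and 1 higher (median -0.65), nucleoporins 11 of 21 NUP genes lower and 0 higher (median -0.64), and centrosomal proteins 15 of 30 CEP genes lower and 0 higher (median -0.64). GOLGA genes had 8 of 17 lower and 0 higher (median -1.54), and many of these are near-identical copies on chromosome 15 whose reads may be shared. Medians by chromosome lay between -0.18 on chromosome 13 and 0.17 on chromosome 9.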
